A study of Mus musculus with 24 samples.

Results

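The comparison concerns how strongly microglial genes respond to bacterial lipopolysaccharide (LPS), a trigger of innate immunity, when the response is read by 2 assays of mouse brain. Its members are the 12 libraries of the 24 in the series whose labels name LPS or its vehicle, phosphate-buffered saline (PBS), with 3 libraries in each of 4 groups. In both assays the response is the log2 level after LPS minus that after PBS, and the difference is the RNA-seq response minus the PAPERCLIP response. A difference above 0 therefore means that RNA-seq gave the higher value of LPS over PBS.

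PAPERCLIP recovers messenger RNA crosslinked to the poly(A)-binding protein, and so reads the ends of polyadenylated transcripts. The 6 PAPERCLIP libraries came from whole brain of mice carrying Cx3cr1-Cre and the Ctag-PABP allele, in which Cre switches on a tagged poly(A)-binding protein. All of them carry both alleles, PBS controls included, and no sorting of cells is needed. Cx3cr1 is a gene of microglia that is also expressed by brain border macrophages and by some blood monocytes, and the tag follows any cell in which Cre has been active. The labels give no dose, schedule, strain or age for these animals. The 6 RNA-seq libraries came from wild-type adult C57BL/6 mice injected in the abdomen once a day for 4 days, with 1 mg/kg LPS or with PBS. Microglia were taken out of dissociated brain with CD11b beads, with 2 brains pooled per tube. CD11b is also found on monocytes, macrophages and neutrophils. The assay, the genotype, the isolation of cells and possibly the dosing and the sex of the animals separate the groups. Their parts in a difference between assays cannot be told apart. Nothing in the labels says that replicates are separate animals, so the p-values reflect only how far these libraries scatter, part of which may be technical. In bulk samples, fewer cells of a type and less RNA per cell cannot be told apart either.

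Microglia are the resident macrophages of the brain. Through Toll-like receptor signalling, LPS switches on NF-kB target genes such as chemokines and, through type I interferon, a further set of interferon-stimulated genes. Resting microglia express a set of homeostatic genes, among them P2ry12 and Tmem119, and activated microglia lower many of them while genes of phagocytosis, lipid handling and lysosomes increase.

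Total counts were 266330 to 337770 in the PBS and 679115 to 1041245 in the LPS libraries of PAPERCLIP, and 1250170 to 2133407 in RNA-seq. The microglial markers P2ry12, Tmem119, Cx3cr1, Csf1r, Sall1, Fcrls and Siglech had counts in every library. Mertk, another homeostatic gene, had no count in any PAPERCLIP library. In RNA-seq it had 5164 counts over the PBS libraries and 3721 over the LPS libraries. PAPERCLIP PBS replicate 3 stood apart: neuron markers summed to 0.477% of its counts, against 0.0677% to 0.102% in the other PAPERCLIP libraries and 0.00463% to 0.0175% in RNA-seq. Hepatocyte markers summed to 0.34% there, against 0.0448% to 0.072% in the other PAPERCLIP libraries and 0.162% to 0.823% in RNA-seq. Ttr, which is on the choroid plexus list as well, is part of the RNA-seq sums. It was at 1540 to 8170 CPM (counts scaled to the library total) there. Alb, the gene of albumin, was at most at 0.994 CPM in RNA-seq. It was at 1300 CPM in PAPERCLIP PBS replicate 3 and at 0 to 19.2 CPM in the other PAPERCLIP libraries. Choroid plexus and ependymal markers summed to 1.40% and 1.32% in RNA-seq PBS replicates 1 and 2, against 0.265% to 0.338% in the other RNA-seq libraries. Chemokine genes summed to 0.187% in PAPERCLIP LPS replicate 3 and to 0.347% and 0.443% in the other LPS libraries of that assay. In RNA-seq, replicates 1 and 2 of both treatments had Xist at 1230 to 1500 CPM and replicate 3 of both had Xist under 2 CPM with counts of Ddx3y, a Y-linked gene. All 6 PAPERCLIP libraries had counts of Ddx3y, at 65.0 to 112 CPM, and Xist at 0 to 14.8 CPM. The labels do not give the sex of the animals, and the mix of sexes in the PAPERCLIP libraries was not tested.

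Of 10165 genes tested, 1 differed in its LPS response between the assays at an adjusted p under 0.05 (edgeR's quasi-likelihood test with Benjamini-Hochberg adjustment), which is 0.00984% of the genes. That gene was Apoe, with the larger response in RNA-seq, and no gene passed with the smaller one. At an unadjusted p under 0.05 the response was larger in RNA-seq for 458 genes (4.51%) and smaller for 461 (4.54%), 9.04% in all. Replicate numbers were taken to pair the PAPERCLIP libraries, as set out in the processing notes. With those numbers as a block in PAPERCLIP, an analysis added after the data were seen, 72 genes passed (0.708%), 48 with the larger response in RNA-seq and 24 with the smaller. Apart from Apoe, every gene named below whose difference is given missed the threshold without the block. The adjusted p with the block in PAPERCLIP, called the block below, is given beside those that passed with it. That block was chosen from correlations in these same counts. Smaller p-values with it are therefore partly a result of that choice and add no support. The planned block in both assays gave 57 genes (0.561%). Ifit1, Isg15 and Upk1b passed with the block in PAPERCLIP and had adjusted p of 0.0514, 0.0535 and 0.0564 with the planned block. Ccl12 and Nfkbiz had 0.0144 and 0.0432 with the planned block and missed with the block in PAPERCLIP. Leaving out PAPERCLIP LPS replicate 3 gave 37 genes (0.342%), 11 larger (0.102%) and 26 smaller in RNA-seq. DESeq2 called 63 larger and 24 smaller.

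The numbers of genes called in the 2 responses, both from the joint fit, were unequal. RNA-seq called 1105 genes higher after LPS (10.9%) and 672 lower (6.61%), and PAPERCLIP called 285 higher (2.8%) and 103 lower (1.01%). With the block, PAPERCLIP called 606 genes in place of 388 (3.82%). The numbers depended on depth and on the shared fit. After thinning to the shallowest library, RNA-seq called 647 and PAPERCLIP 262 of 6418 genes. Fitted alone, RNA-seq called 2675 of 10062 genes and PAPERCLIP 203 of 5657. Both assays called 225 genes higher and 52 lower, and no gene was called in opposite directions. Over 8059 genes with a count in every group and at least 20 counts in each assay, the responses correlated across genes at a Pearson r of 0.62 and a Spearman rho of 0.48, as a description, since genes are not independent. Of 1139 such genes called in RNA-seq alone, 977 (85.8%) had the same sign in PAPERCLIP, against 60.7% of the 6562 genes called in neither. Their median response was 0.86 in RNA-seq and 0.44 in the same direction in PAPERCLIP. Of 101 such genes called in PAPERCLIP alone, 82 had the same sign in RNA-seq, and the median response was 1.23 in PAPERCLIP and 0.31 in that direction in RNA-seq. In both sets the assay that made the call also chose the genes, so the larger median there is part of the choice. The median standard error (SE) of a response was 0.21 in RNA-seq and 0.32 in PAPERCLIP. The 95% interval of the difference lay within 1 log2 on both sides of 0 for 2852 of the 8059 genes (35.4%), and for the others the data did not limit the difference to a 2-fold range on either side.

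**Figure D1:**
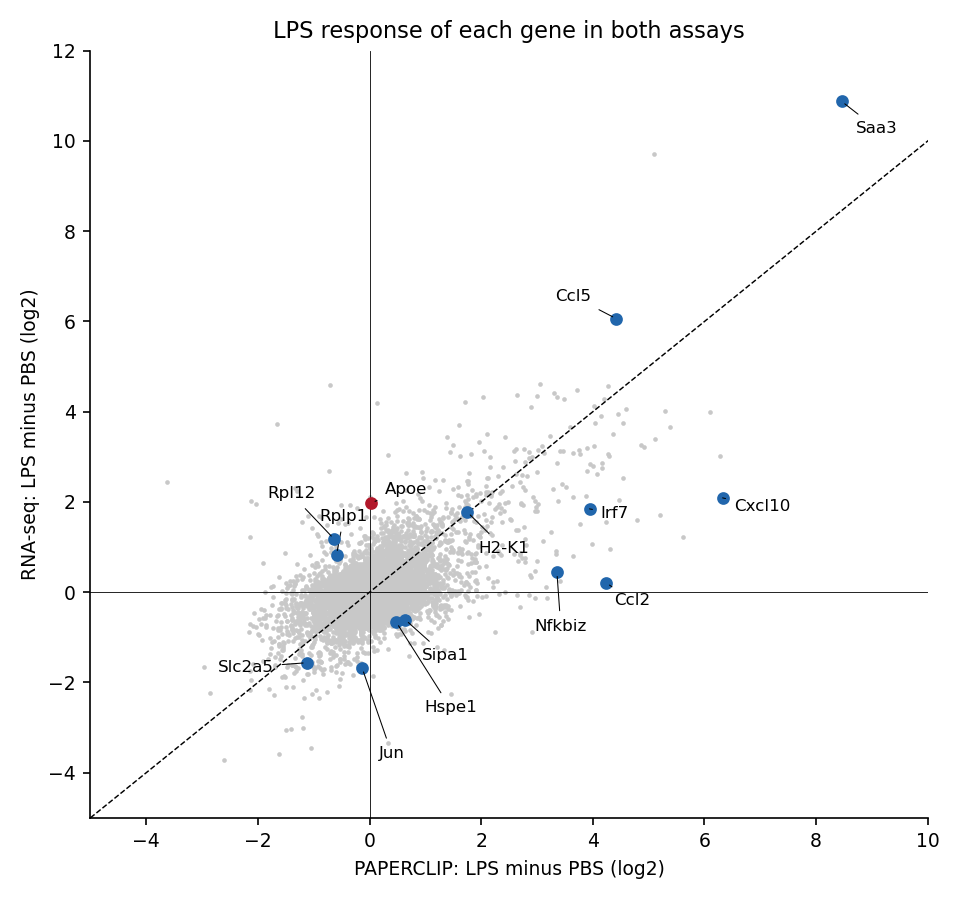
LPS response of 8059 genes with a count in every group and at least 20 counts in each assay, with PAPERCLIP on the horizontal axis and RNA-seq on the vertical axis, both as log2 of LPS over PBS. Grey points are genes, the dashed line marks equal responses, Apoe is in red and other genes named in the text are in blue. Apoe sits at 0.03 in PAPERCLIP and 1.98 in RNA-seq, while H2-K1 lies on the line and Cxcl10, Irf7, Nfkbiz and Ccl2 lie to its right.

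Genes called in both assays with similar values included antigen presentation and surface genes. H2-K1, a class I antigen-presenting molecule, rose by 1.78 in RNA-seq and 1.75 in PAPERCLIP, and the 95% interval of the difference ran from -0.41 to 0.46. Its normalised CPM were 2555, 2341 and 2404 after PBS and 7384, 8775 and 8416 after LPS in PAPERCLIP, and 343, 358 and 325 against 1346, 1252 and 917 in RNA-seq. LPS libraries lay above PBS libraries in both assays. H2-K1 has near-identical class I relatives, so its counts are uncertain. Cd52, a small surface glycoprotein of leukocytes, rose by 2.18 and 2.17, with an interval of the difference from -0.54 to 0.55. Cxcl16, a membrane-bound chemokine, rose by 1.99 and 2.14 (interval -0.76 to 0.46). Among genes that fell in both, Slc2a5, a fructose transporter typical of microglia, had -1.56 in RNA-seq and -1.12 in PAPERCLIP (interval of the difference -0.996 to 0.10).

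Saa3, an acute-phase serum amyloid protein, had the level that moved furthest among the genes named here. It rose from 0.884, 0 and 1.93 to 2362, 2400 and 1680 normalised CPM in RNA-seq, and from 8.63, 4.61 and 27.8 to 3563, 4914 and 7256 in PAPERCLIP. The groups were far apart in both assays, and the difference of 2.43 (SE 0.95) had an adjusted p of 0.442. Without PAPERCLIP PBS replicate 3, whose level was the highest of the PBS libraries, the difference of Saa3 was 1.16 (adjusted p 0.826). Ccl5, a chemokine that attracts T cells, rose by 6.06 in RNA-seq and 4.42 in PAPERCLIP, with a difference of 1.64 (SE 0.79, adjusted p 0.567).

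Apoe encodes apolipoprotein E, the lipid carrier that activated microglia are known to make and that astrocytes also express (chr7:19696244-19701310, GRCm38.p6). In RNA-seq its normalised CPM were 1360, 1515 and 1383 after PBS and 6093, 4807 and 5911 after LPS. In PAPERCLIP they were 393, 378 and 341 after PBS and 309, 376 and 449 after LPS. The RNA-seq groups were far apart, and in PAPERCLIP the LPS libraries lay on both sides of the PBS libraries. Apoe rose by 1.98 in RNA-seq (adjusted p 1.6e-07) and had a value of 0.03 in PAPERCLIP (adjusted p 0.982). The difference was 1.95 (SE 0.22, 95% interval 1.48 to 2.43, adjusted p 0.00103). It passed in all 25 alternatives run, with values from 1.70 to 2.05. Gene-level counts do not separate the 3' ends of a transcript.

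**Figure D2:**
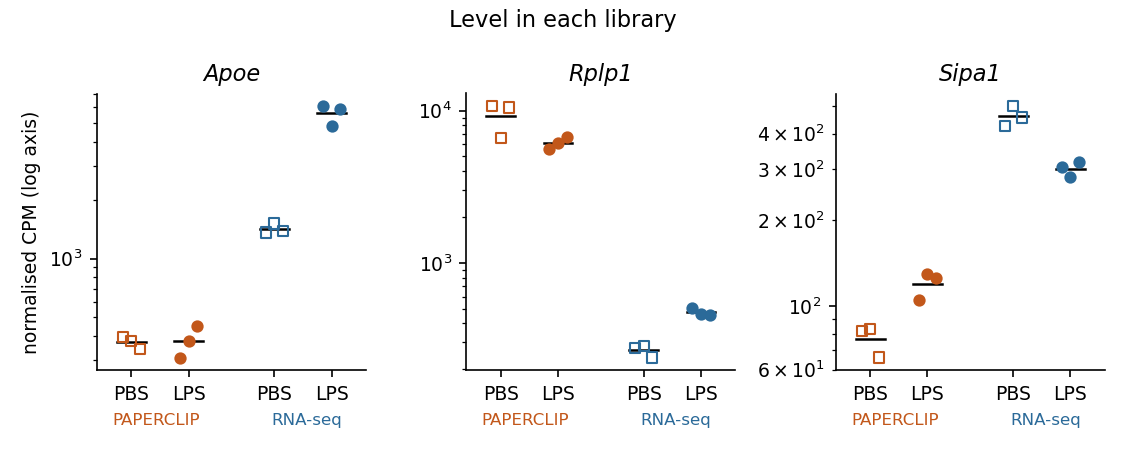
Normalised CPM (log axis) of Apoe, Rplp1 and Sipa1 in each of the 12 libraries, with PAPERCLIP in orange and RNA-seq in blue. Open squares are PBS libraries, filled circles are LPS libraries and black lines are group means. Apoe is separated by treatment in RNA-seq and overlaps in PAPERCLIP, and Sipa1 is separated in opposite directions in the 2 assays.

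Astrocyte markers, other than Apoe, summed to 0.0553% to 0.0766% of counts after PBS and 0.0307% to 0.0516% after LPS in RNA-seq, and to 0.0395% to 0.108% in PAPERCLIP. Gfap, the astrocyte filament protein, was at 0 to 8.91 CPM in PAPERCLIP and 4.16 to 15.2 CPM in RNA-seq. Monocyte markers summed to 0.115% to 0.174% after PBS and 0.35% to 0.396% after LPS in RNA-seq, and to 0.00716% to 0.0265% in PAPERCLIP. The members differed. After LPS, Lyz2 was at 1980 to 2290 CPM in RNA-seq and 11.8 to 22.2 in PAPERCLIP. Ccr2 was then at 57.8 to 95.4 and 21.3 to 35.7 CPM, and Plac8 at 27 to 46.2 and 34.3 to 96.4. Of 15 monocyte markers, 6 had no count in the PAPERCLIP PBS group, whose libraries were the shallowest, and 1 had none in the PAPERCLIP LPS group. Border macrophage markers summed to 0.317% to 0.373% in RNA-seq and 0.16% to 0.225% in PAPERCLIP. The part of these cells in the Apoe difference was not tested.

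Of 19 genes of cholesterol efflux and lipid handling tested, Apoe included, 14 had a difference above 0. In RNA-seq 10 of them rose, against 10.9% of all genes, and in PAPERCLIP 1 did, against 2.8%. At an unadjusted p under 0.05, 6 had a larger response in RNA-seq, where 4.51% of all genes did, and none a smaller. Over 18 members with a count in every group the difference ran from -3.28 to 5.39, so some lay further from 0 than that of Apoe. Abca1, which loads cholesterol onto apolipoproteins, rose by 0.99 in RNA-seq from 881, 847 and 911 to 1792, 1578 and 1864 normalised CPM. In PAPERCLIP it was at 699, 719 and 539 after PBS and 724, 840 and 1012 after LPS, and its difference was 0.59 (SE 0.22, adjusted p 0.409). The LPS libraries lay above the PBS libraries in both assays. Soat1, which esterifies cholesterol for storage, had a difference of 0.59 (SE 0.22, adjusted p 0.422) and Abcg1, a second cholesterol exporter, one of 0.63 (SE 0.25, adjusted p 0.445). The difference of Abcg1 was 0.19 without PAPERCLIP PBS replicate 2. Both Soat1 and Abcg1 rose in RNA-seq.

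Genes of the disease-associated microglial state, a set known from neurodegeneration that includes Apoe, moved in both assays. Of 28 tested, 22 rose in RNA-seq (10.9% of all genes) and 10 in PAPERCLIP (2.8%), and over 27 with a count in every group the median response was 1.35 in RNA-seq and 0.69 in PAPERCLIP. Ctsb, a lysosomal protease, rose in both, by 1.13 in RNA-seq and 0.56 in PAPERCLIP (difference 0.57, SE 0.18, adjusted p 0.325). Spp1, the secreted phosphoprotein osteopontin, rose by 2.66 in RNA-seq, and in PAPERCLIP its LPS libraries at 157, 140 and 148 normalised CPM all lay above its PBS libraries at 90.6, 69.1 and 73.1. The ferritin chains Fth1 and Ftl1, which store iron, are in the same set. Fth1 rose by 1.56 in RNA-seq and had 0.38 in PAPERCLIP (difference 1.17, SE 0.27, adjusted p 0.122, with the block 0.0272). Ftl1 rose by 0.98 in RNA-seq and had -0.69 in PAPERCLIP, where its libraries overlapped (difference 1.67, SE 0.42, adjusted p 0.177, with the block 0.00544). Ferritin genes have processed copies, so their counts are uncertain.

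Cytosolic ribosomal protein genes had the most members with a larger response in RNA-seq among the 44 lists. Of 77 tested, 73 rose in RNA-seq, against 10.9% of all genes, and 5 rose in PAPERCLIP, against 2.8%. None fell in either assay. The difference was above 0 for 72 of the 77. It was larger in RNA-seq at an unadjusted p under 0.05 for 45, where 4.51% of all genes were, and smaller for 1, where 4.54% were. No member passed after adjustment, and 15 passed with the block, where 0.472% of all genes did in that direction. Over 61 members with a count in every group and at least 20 counts in each assay, the median response was 1.19 in RNA-seq and 0.31 in PAPERCLIP, and the median difference was 0.78, beside -0.03 over all such genes. Ribosomal protein genes have many processed copies in the genome, and reads shared with them make single counts uncertain. Summed over 78 members, the share of counts was 1.06%, 1.04% and 1.05% after PBS and 2.36%, 2.17% and 2.13% after LPS in RNA-seq. In PAPERCLIP it was 3.27%, 2.87% and 3.24% after PBS and 2.95%, 3.46% and 4.08% after LPS. The RNA-seq groups did not overlap and the PAPERCLIP groups did.

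Rplp1 encodes an acidic stalk protein of the large ribosomal subunit (chr9:61913283-61914510, GRCm38.p6). In PAPERCLIP its normalised CPM were 10720, 6580 and 10480 after PBS and 5610, 6090 and 6748 after LPS. In RNA-seq they were 277, 283 and 239 after PBS and 507, 460 and 457 after LPS. The RNA-seq groups were apart, and in PAPERCLIP 1 PBS library lay among the LPS libraries. Rplp1 rose by 0.83 in RNA-seq (adjusted p 0.00217) and had -0.59 in PAPERCLIP (adjusted p 0.0575). The difference was 1.43 (SE 0.24, 95% interval 0.92 to 1.93, adjusted p 0.0713, with the block 0.00498), and it passed in 11 of 25 alternatives.

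Rplp0, the partner of Rplp1 in the ribosomal stalk, rose by 1.42 in RNA-seq, from 233, 220 and 218 to 646, 605 and 541 normalised CPM. In PAPERCLIP it was at 73.4, 73.7 and 69.6 after PBS and 80.4, 78.6 and 89.7 after LPS, apart but close. Its difference was 1.21 (SE 0.23, adjusted p 0.0713, with the block 0.0228). Rpl12, which sits at the base of the stalk, had 1.18 in RNA-seq and -0.63 in PAPERCLIP, and its difference was 1.81 (SE 0.41, adjusted p 0.122, with the block 0.00498). Its PAPERCLIP libraries overlapped, at 160, 166 and 83.5 after PBS and 60.9, 153 and 55.5 after LPS. Rpl32, Rpl39 and Rpl11, other proteins of the large subunit, had differences of 1.33, 1.25 and 0.97, with adjusted p of 0.0945, 0.122 and 0.122 and, with the block, 0.00498, 0.023 and 0.00667.

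**Figure D3:**
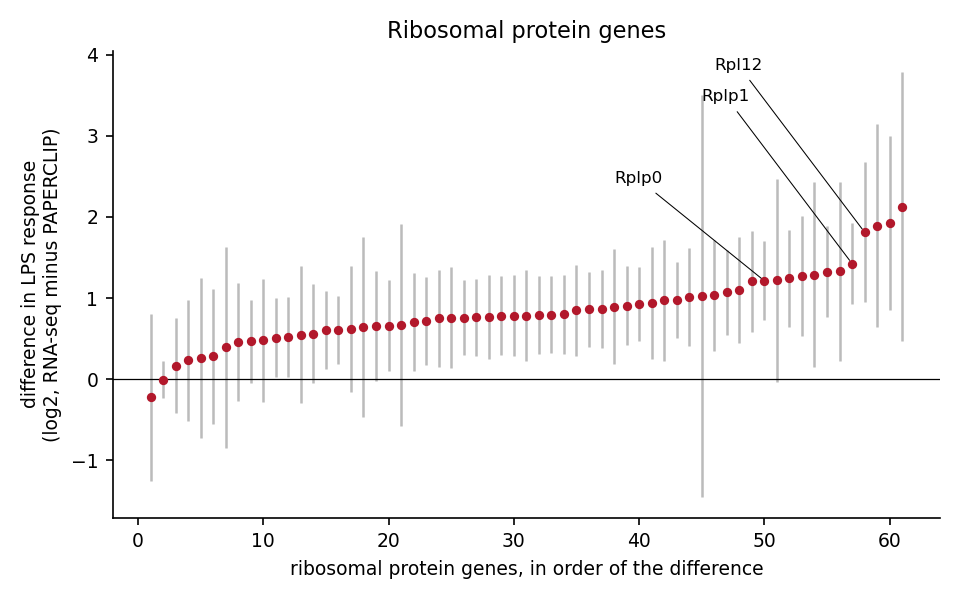
Difference in LPS response (log2, RNA-seq minus PAPERCLIP) of 61 ribosomal protein genes with a count in every group and at least 20 counts in each assay, ordered by that difference. Points are estimates and grey lines are 95% intervals, of which 43 lie wholly above 0 and 0 wholly below it.

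Of 28 translation factors and poly(A)-binding proteins tested, 21 had a difference above 0, and the lowest was -0.97. The median difference was 0.53, and without PAPERCLIP PBS replicate 2 it was 0.153. In RNA-seq 15 rose (10.9% of all genes), and in PAPERCLIP none rose (2.8%) and 1 fell (1.01%). The median response was 0.79 in RNA-seq and 0.31 in PAPERCLIP. At an unadjusted p under 0.05, 11 had a larger response in RNA-seq (4.51% of all genes) and 1 a smaller (4.54%). Eef1b2, an exchange factor of translation elongation, had a difference of 0.99 (SE 0.25, adjusted p 0.177, with the block 0.0452). Eif3e and Eif3f, subunits of an initiation factor, had differences of 1.53 (SE 0.39) and 1.09 (SE 0.28), both at an adjusted p of 0.177 and, with the block, 0.0214 and 0.00741. Rack1, a scaffold on the small ribosomal subunit, had 0.82 (SE 0.23, adjusted p 0.238, with the block 0.0419).

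Pabpc1 encodes the poly(A)-binding protein itself, which is the protein tagged for PAPERCLIP. In RNA-seq it rose by 1.36, from 381, 402 and 421 to 1082, 1026 and 987 normalised CPM. In PAPERCLIP it was at 86.3, 138 and 55.7 after PBS and 116, 223 and 72.6 after LPS, with overlapping groups. The difference was 0.80 (SE 0.44, 95% interval -0.12 to 1.73, adjusted p 0.637), and without PAPERCLIP LPS replicate 3 it was 0.37 and without PAPERCLIP PBS replicate 2 it was 0.30.

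Sipa1 encodes a protein that switches off the small GTPase RAP, which controls integrin adhesion (chr19:5651185-5663722, GRCm38.p6). In RNA-seq its normalised CPM were 425, 499 and 455 after PBS and 305, 282 and 318 after LPS. In PAPERCLIP they were 82.0, 82.9 and 66.1 after PBS and 105, 129 and 125 after LPS. The groups were apart in both assays, in opposite directions, as were those of 94 genes in all (0.925%). Sipa1 fell by 0.61 in RNA-seq (adjusted p 0.00209) and had 0.64 in PAPERCLIP (adjusted p 0.081). The difference was -1.25 (SE 0.23, 95% interval -1.73 to -0.76, adjusted p 0.0713, with the block 0.0154), and it passed in 8 of 25 alternatives.

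Over 27 genes of RAP signalling and integrin adhesion with a count in every group, the median difference was 0.06, with a median response of 0.15 in both assays. At an unadjusted p under 0.05, 5 of the 30 tested had a larger response in RNA-seq (4.51% of all genes). Only Sipa1 had a smaller one (4.54% of all genes). Itga4, an integrin chain that binds vessel walls, rose by 1.98 in RNA-seq and had 0.48 in PAPERCLIP (difference 1.50, SE 0.48, adjusted p 0.326), and without PAPERCLIP PBS replicate 2 the difference of Itga4 was 0.83. Itgb2, the integrin chain that pairs with CD11b, rose by 1.01 in RNA-seq and had 0.46 in PAPERCLIP (difference 0.55, SE 0.22, adjusted p 0.443).

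Araf encodes a kinase of the RAS to ERK cascade, and an Araf isoform is named in the title of the series. Its normalised CPM were 71.6, 63.1 and 64.5 after PBS and 62.2, 55.9 and 61.9 after LPS in RNA-seq. They were 77.7, 50.7 and 104 after PBS and 57.5, 52.4 and 55.5 after LPS in PAPERCLIP. The RNA-seq groups were close but apart and the PAPERCLIP groups overlapped. The difference was 0.37 (SE 0.28, 95% interval -0.22 to 0.95, adjusted p 0.781), and it was -0.07 without PAPERCLIP PBS replicate 3. These are totals per gene and say nothing of isoforms. In the RAS, RAF and ERK list, Araf included, 2 of 27 genes tested had a larger response in RNA-seq and 2 a smaller at an unadjusted p under 0.05, near the 4.51% and 4.54% of all genes. Nras, a RAS GTPase, had a difference of 0.58 (SE 0.18, adjusted p 0.309). Dusp6, a phosphatase that switches off ERK, fell by 1.00 in RNA-seq and had -0.26 in PAPERCLIP (difference -0.74, SE 0.27, adjusted p 0.398).

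Interferon-stimulated genes had the larger response in PAPERCLIP more often than in RNA-seq. Of 47 tested, 29 rose in RNA-seq (10.9% of all genes) and 25 in PAPERCLIP (2.8%), and none fell. At an unadjusted p under 0.05 the response was smaller in RNA-seq for 11, where 4.54% of all genes were, and larger for none. Over 39 with a count in every group and at least 20 counts in each assay, the median response was 0.84 in RNA-seq and 1.50 in PAPERCLIP, and the median difference was -0.45. No member passed after adjustment, and 3 passed with the block, where 0.236% of all genes did in that direction.

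Interferon acts through factors that bind the interferon-stimulated response element, whose core is a repeat of GAAA spaced by 2 bases. RefSeq promoters (250 bases before to 50 after the start, GRCm38.p6) were at hand for 35 of the 47 genes, and 22 of them (62.9%) held GAAANNGAAA on either strand. The same letters were in 325 of 8173 promoters of all tested genes (3.98%) in 2 of 12 of tested chemokine genes (16.7%) and in 7 of 56 of tested ribosomal protein genes (12.5%). Overlapping matches were each counted as a match of the same promoter. The list holds genes known to be switched on by interferon, so a high share is partly fixed by that choice. Whether a match goes with the difference between assays was not tested. The windows below show the match in capitals with the flanking bases, for the interferon-stimulated genes described next whose promoter held one. They are chr19:34640794-34640823 for Ifit1, chr19:34583397-34583426 for Ifit3, chr4:156200871-156200900 for Isg15 and chr5:92349083-92349112 for Cxcl10, all on the minus strand.
Ifit1: tcagcagtgaGAAACTGAAActgagactgg
Ifit3: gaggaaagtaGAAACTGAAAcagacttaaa
Isg15: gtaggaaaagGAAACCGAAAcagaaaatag
Cxcl10: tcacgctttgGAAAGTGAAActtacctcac

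Ifit3 encodes an antiviral protein that binds viral RNA complexes. It rose in PAPERCLIP from 56.1, 36.9 and 55.7 to 401, 406 and 365 normalised CPM and in RNA-seq from 4.86, 6.18 and 10.6 to 28.7, 27.3 and 34.9. The groups were well apart in both assays, and the difference was -0.93 (SE 0.37, adjusted p 0.449). Ifit1, its close relative, rose by 3.35 in PAPERCLIP and 0.84 in RNA-seq, with a difference of -2.51 (SE 0.51, adjusted p 0.096, with the block 0.0338). Irf7, the factor that amplifies interferon production, rose in PAPERCLIP from 4.32, 13.8 and 10.4 to 178, 133 and 128.1 and in RNA-seq from 13.7, 12.4 and 16.4 to 41.5, 68.2 and 42.2. Both assays separated the groups, and PAPERCLIP did so by more. The difference of Irf7 was -2.09 (SE 0.55, adjusted p 0.193).

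Isg15, a ubiquitin-like protein, rose by 3.35 in PAPERCLIP and had 0.91 in RNA-seq, with levels under 11 normalised CPM in all RNA-seq libraries. Its difference was -2.44 (SE 0.83, adjusted p 0.356, with the block 0.0338). Rtp4, an interferon-induced chaperone of receptors, rose by 1.82 in PAPERCLIP and had 0.64 in RNA-seq (difference -1.18, SE 0.35, adjusted p 0.255).

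Chemokine genes, which draw leukocytes into tissue, were split. Of 18 tested, 8 rose in RNA-seq (10.9% of all genes) and 8 in PAPERCLIP (2.8%). At an unadjusted p under 0.05, 6 had a smaller response in RNA-seq (4.54% of all genes) and 1 a larger (4.51%). Ccl2, which attracts monocytes, rose in PAPERCLIP from 21.6, 4.61 and 6.96 to 284, 290 and 49.8 normalised CPM. In RNA-seq it was at 28.7, 39.8 and 44.8 after PBS and 33.5, 57.6 and 36.4 after LPS, with overlapping groups. Its difference was -4.03 (SE 0.95, adjusted p 0.141, with the block 0.00498).

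Ccl3, which attracts macrophages, rose in PAPERCLIP from 21.6, 59.9 and 34.8 to 493, 1716 and 91.1 and was at 298, 290 and 353 against 510, 621 and 692 in RNA-seq. The groups were apart in both assays, and LPS replicate 3 was the lowest of the PAPERCLIP LPS libraries. Its difference was -3.35 (SE 1.02, adjusted p 0.275, with the block 0.00498). Cxcl10, the interferon-induced chemokine whose promoter window stands above, went from 8.63, 0 and 0 to 275, 335 and 75.5 in PAPERCLIP and from 7.95, 9.61 and 7.70 to 39.6, 37.5 and 29.1 in RNA-seq. It rose in both, and its difference was -4.23 (SE 1.29, adjusted p 0.275, with the block 0.00741), resting on few PAPERCLIP counts after PBS.

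Without PAPERCLIP LPS replicate 3, the library with the lowest chemokine share of its group, 5 of 18 chemokine genes passed with a smaller response in RNA-seq, where 0.241% of all genes did. The values were then -4.62 for Ccl2 (adjusted p 0.000271), -4.01 for Ccl3 (0.00501), -4.78 for Cxcl10 (0.00427) and -2.33 for Ccl12 (0.0213), another monocyte attractant. With all libraries Ccl12 had -1.83 (adjusted p 0.336). Tnf, the inflammatory cytokine, rose by 2.96 in PAPERCLIP and had 0.46 in RNA-seq, and its difference of -2.50 (SE 0.95, adjusted p 0.429) was -3.11 without that library (adjusted p 0.0342). The library left out was singled out by its low chemokine share. Larger differences and smaller p-values of these genes without it are therefore part of that choice and add no support.

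**Figure D4:**
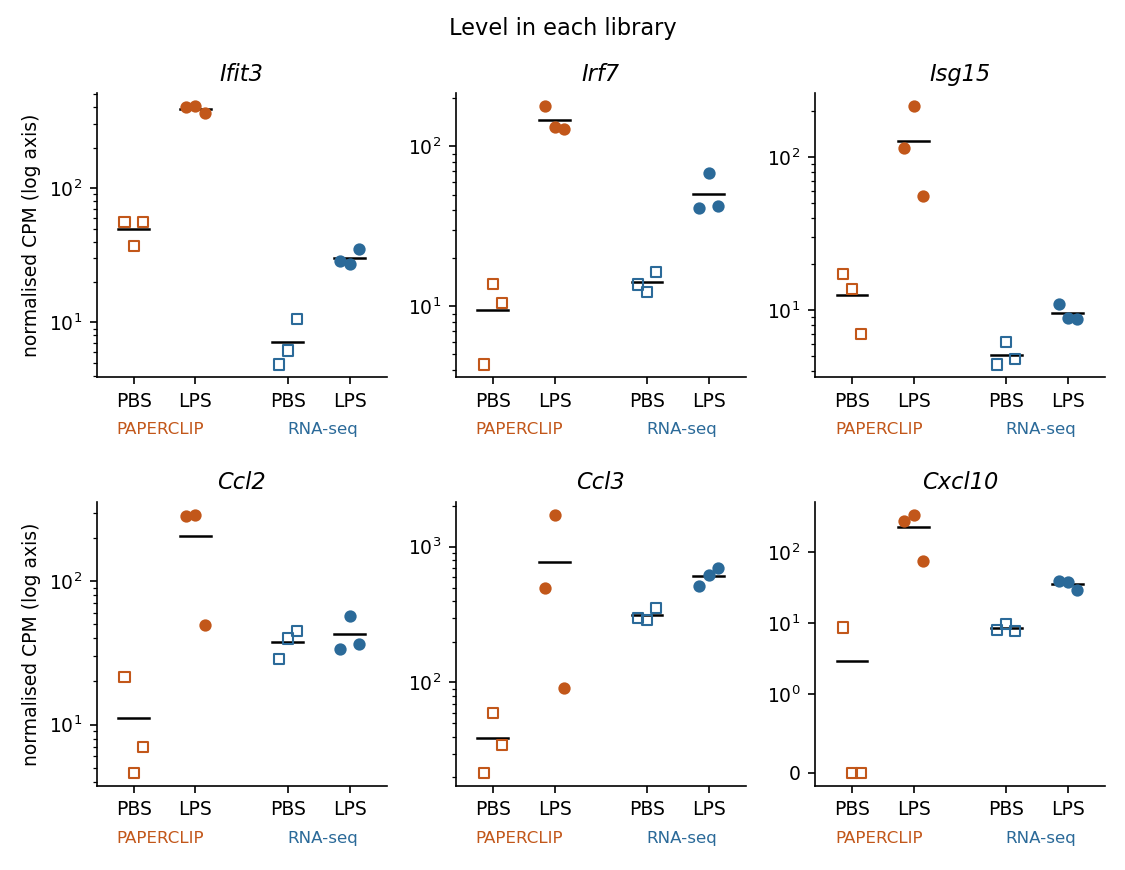
Normalised CPM (log axis, with a linear stretch down to 0 for Cxcl10) of 3 interferon-stimulated genes in the upper row and 3 chemokine genes in the lower row. Open squares are PBS libraries, filled circles are LPS libraries and black lines are group means, with PAPERCLIP in orange and RNA-seq in blue. Ccl2, Ccl3 and Cxcl10 have 1 PAPERCLIP LPS library, replicate 3, below the other 2.

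NF-kB pathway genes had 3 members of 23 with a smaller response in RNA-seq at an unadjusted p under 0.05 (4.54% of all genes) and none larger. Nfkbiz, a nuclear co-regulator of NF-kB induced by LPS, rose in PAPERCLIP from 4.32, 0 and 6.96 to 44.8, 67.4 and 19.9 normalised CPM. In RNA-seq it was at 123, 152 and 167 after PBS and 181, 212 and 207 after LPS. The groups were apart in both assays, and the RNA-seq level was already above the PAPERCLIP level after PBS. The difference was -2.92 (SE 0.80, adjusted p 0.212). Nfkbia, the inhibitor of NF-kB that is also its target, rose by 1.12 in PAPERCLIP and had 0.42 in RNA-seq (difference -0.70, SE 0.28, adjusted p 0.466).

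Immediate early genes, which cells switch on within minutes of a stimulus or of handling, had 9 of 26 members with a smaller response in RNA-seq at an unadjusted p under 0.05 (4.54% of all genes) and none larger. Jun, a subunit of the AP-1 factor, fell in RNA-seq from 2129, 2553 and 2308 to 639, 659 and 885 normalised CPM. In PAPERCLIP it was at 117, 55.3 and 87.0 after PBS and 91.9, 91.7 and 54.1 after LPS, with overlapping groups. The difference was -1.55 (SE 0.33, adjusted p 0.116, with the block 0.0304).

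Fos, its partner, was at 885, 1171 and 1011 after PBS and 784, 1108 and 1032 after LPS in RNA-seq, and at most at 11.5 in any PAPERCLIP library. On these low PAPERCLIP levels, the difference of Fos ran from -6.98 to -1.97 over 25 alternatives and passed in 0 of them. Ier5, a stress-induced regulator, fell by 0.99 in RNA-seq and had -0.11 in PAPERCLIP (difference -0.88, SE 0.23, adjusted p 0.179, with the block 0.0251). Summed over the list, these genes took 1.47% to 1.80% of RNA-seq counts after PBS and 1.04% to 1.28% after LPS, and 0.494% to 0.832% in PAPERCLIP.

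Heat shock proteins and chaperones, which fold proteins and respond to stress, fell in RNA-seq for 14 of 23 genes tested (6.61% of all genes) and for none in PAPERCLIP (1.01%). At an unadjusted p under 0.05, 6 had a smaller response in RNA-seq (4.54% of all genes) and none a larger. Hspe1, the mitochondrial co-chaperonin, was at 58.8, 57.6 and 50.5 after PBS and 34.2, 35.8 and 34.9 after LPS in RNA-seq, and at 315, 221 and 237 against 332, 382 and 365 in PAPERCLIP. The groups were apart in opposite directions, and the difference was -1.14 (SE 0.22, adjusted p 0.0713, with the block 0.0203). Hsp90ab1, the constitutive cytosolic chaperone, fell by 0.83 in RNA-seq and had -0.02 in PAPERCLIP (difference -0.81, SE 0.23, adjusted p 0.238, with the block 0.0293). St13, a helper of HSP70, had -0.85 (SE 0.21, adjusted p 0.174). The list summed to 0.728% to 1.00% of RNA-seq counts after PBS and 0.444% to 0.51% after LPS, and to 0.269% to 0.337% in PAPERCLIP.

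**Figure D5:**
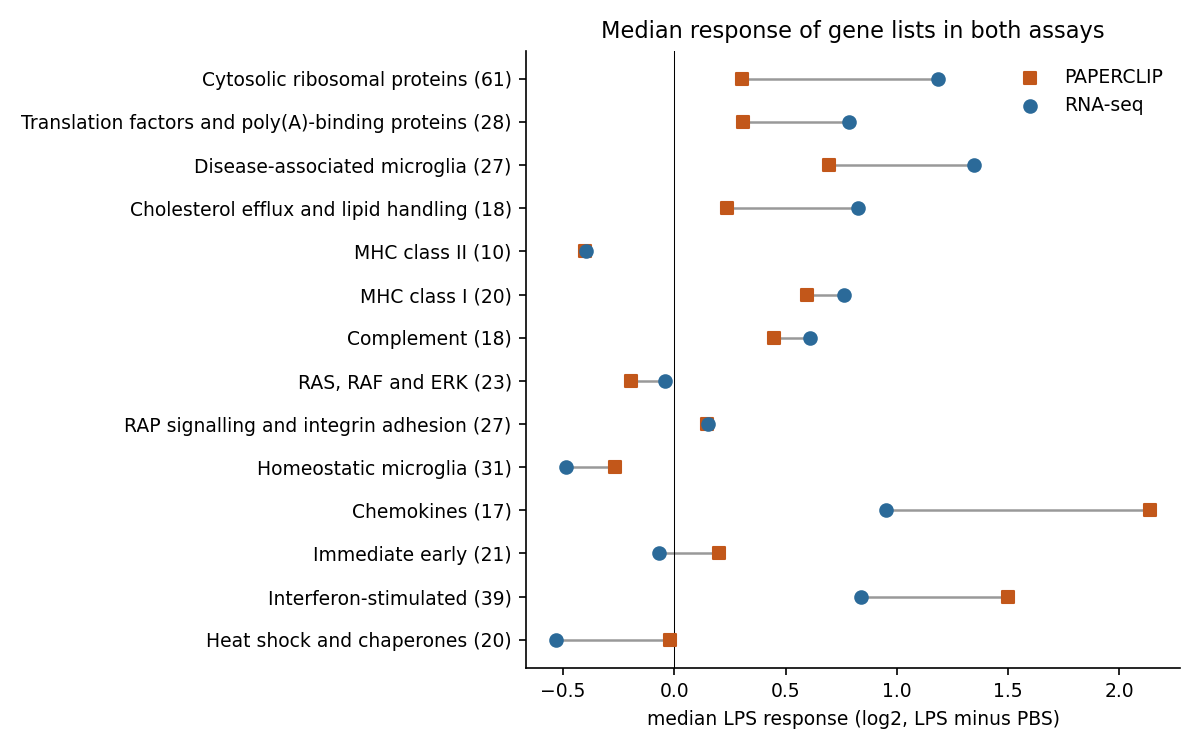
Median LPS response (log2 of LPS over PBS) of 14 gene lists in both assays, over the members with a count in every group and at least 20 counts in each assay, whose number stands in brackets. Orange squares are PAPERCLIP and blue circles are RNA-seq. Ribosomal protein genes have a median of 1.19 in RNA-seq and 0.31 in PAPERCLIP, and interferon-stimulated genes 0.84 and 1.50.

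Of 32 homeostatic microglial genes tested, 17 fell in RNA-seq, against 6.61% of all genes, and 6 in PAPERCLIP, against 1.01%. In RNA-seq 3 rose (10.9% of all genes) and in PAPERCLIP 1 (2.8%). The difference was below 0 for 7 (4.54% of all genes) and above 0 for 2 (4.51%) at an unadjusted p under 0.05. P2ry12, the ADP receptor of resting microglia, fell from 4499, 3866 and 3645 to 1385, 965 and 1780 normalised CPM in RNA-seq and from 6327, 5658 and 5466 to 3106, 3037 and 3403 in PAPERCLIP. The groups were apart in both assays, and the difference was -0.67 (SE 0.25, adjusted p 0.418). Selplg, the ligand of P-selectin, fell by 1.22 in RNA-seq and had -0.37 in PAPERCLIP (difference -0.85, SE 0.21, adjusted p 0.173, with the block 0.0347). Tmem119 fell by 0.87 in RNA-seq and had -0.15 in PAPERCLIP, with a difference of -0.72 (SE 0.19, adjusted p 0.207).

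Crybb1, a crystallin known as a marker of microglia, went the other way: it fell by 0.92 in PAPERCLIP, from 324, 304 and 341 to 163, 161 and 189, and had -0.19 in RNA-seq. The PAPERCLIP groups were apart and the RNA-seq groups overlapped, and the difference was 0.73 (SE 0.20, adjusted p 0.205). Gpr84, a receptor induced in activated microglia, is on the homeostatic list too and counts among its members with a difference below 0. It rose in both assays, by 2.08 in PAPERCLIP and 0.58 in RNA-seq (difference -1.50, SE 0.40, adjusted p 0.204). Cx3cr1, the receptor whose gene drives Cre in the tagged mice, fell in RNA-seq from 5576, 5643 and 5744 to 3661, 3355 and 4098. In PAPERCLIP it was at 1783, 1161 and 1061 after PBS and 1198, 1001 and 1196 after LPS, with overlapping groups. Its difference was -0.37 (SE 0.24, 95% interval -0.88 to 0.13, adjusted p 0.711).

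Of 10 class II antigen-presenting genes tested, 4 fell in RNA-seq (6.61% of all genes) and 4 in PAPERCLIP (1.01%). In RNA-seq 2 rose (10.9% of all genes) and in PAPERCLIP 1 (2.8%), and the median response was -0.40 in both. The difference was above 0 for 9 of the 10, with a median of 0.34. None had an unadjusted p of the difference under 0.05. H2-Ab1, a chain of the class II molecule, fell in both, with -1.01 in RNA-seq and -1.34 in PAPERCLIP (interval of the difference -0.29 to 0.96). Cd74, the chaperone of class II molecules, fell too, with -0.58 and -1.12, and had a difference of 0.54 (SE 0.27, adjusted p 0.597). Among complement genes, C4b rose in both assays, from 46.8, 43.9 and 48.6 to 448, 413 and 351 in RNA-seq and from 64.7, 50.7 and 69.6 to 132, 129 and 246 in PAPERCLIP. Its groups were apart in both, and the difference was 1.67 (SE 0.37, adjusted p 0.122, with the block 0.0114). C4b has a near-identical neighbour, C4a, so its counts are uncertain.

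Further genes with small p-values belonged to no list above and were chosen after their values were seen. Rsrp1, a protein linked to RNA splicing, fell in PAPERCLIP from 268, 267 and 188 to 98.8, 74.8 and 74.0 normalised CPM and was at 296, 334 and 264 against 274, 236 and 242 in RNA-seq. The PAPERCLIP groups were apart and the RNA-seq groups overlapped, with a difference of 1.27 (SE 0.24, adjusted p 0.0713, with the block 0.00741). Tmsb10, a small protein that binds actin monomers, rose by 1.33 in RNA-seq and had 0.04 in PAPERCLIP (difference 1.29, SE 0.25, adjusted p 0.0719, with the block 0.0231). Pla2g7, a secreted phospholipase, rose by 2.64 in RNA-seq and had 0.66 in PAPERCLIP (difference 1.98, SE 0.42, adjusted p 0.116, with the block 0.0203). Upk1b fell in both assays, with -3.03 in RNA-seq and -1.41 in PAPERCLIP (difference -1.61, SE 0.35, adjusted p 0.116, with the block 0.0452). Trrap, a scaffold of histone acetyltransferase complexes, fell by 0.68 in PAPERCLIP and had 0.36 in RNA-seq (difference 1.04, SE 0.23, adjusted p 0.122, with the block 0.0203).

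Some genes known from other cells had large differences whose size moved with PAPERCLIP PBS replicate 3. Cyfip2, a regulator of actin that is abundant in neurons, was at 30.2, 18.4 and 174 normalised CPM after PBS and 18.4, 24.3 and 17.1 after LPS in PAPERCLIP. In RNA-seq it rose from 12.8, 11.7 and 22.1 to 62.8, 70.8 and 48.1. The PAPERCLIP PBS library at 174 was replicate 3, the one with the high share of neuron markers, and the difference was 3.98 (SE 0.70, adjusted p 0.0713, with the block 0.00901). Without that library the difference of Cyfip2 was 2.13 (adjusted p 0.277). Over the 16 neuron markers tested the median difference was 0.93 with all libraries and -0.54 without PAPERCLIP PBS replicate 3. Of the 16, 5 had a group without a count, so these medians rest partly on genes near the floor. Over 6 with a count in every group and at least 20 counts in each assay, the median was 2.48 with all libraries. Hbb-bs, a haemoglobin chain of red cells with near-identical copies, fell by 3.45 in RNA-seq and had -1.05 in PAPERCLIP (difference -2.40, SE 0.65, adjusted p 0.212, with the block 0.0494). Its difference was -3.38 without PAPERCLIP PBS replicate 3 (adjusted p 0.108), and its counts were few.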

How the data were processed

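The values are whole-number counts per gene that the authors deposited without scaling. The submitters' processing notes name cutadapt, Novoalign, STAR and mm10; versions, duplicate removal and strand use are not given in the sources used. PAPERCLIP symbols and RNA-seq Ensembl identifiers were joined by symbol, giving 23106 genes. A single edgeR 4.0.16 quasi-likelihood fit (R 4.3.3) of 4 group means, filtered by filterByExpr and scaled by TMM, with p-values adjusted by Benjamini-Hochberg over the whole table, gave both responses and their difference. CPM are normalised by TMM except for marker levels, which use the library total. SE come from the F statistic. The fit was tested on simulated data. Members, the 44 gene lists and genes were chosen with earlier results of these data known. The rule names Apoe, Rplp1, Sipa1, Araf, Cx3cr1 and Pabpc1 and genes past the threshold; other genes named were chosen after their values were seen. The correlation of same-numbered libraries' deviations from group means was 0.13, 0.239 and 0.182 in PAPERCLIP, from the data alone, and 0.0907, 0.106 and 0.188 in RNA-seq. Between libraries of different numbers it ran from -0.182 to -0.0231 in PAPERCLIP and from -0.159 to 0.115 in RNA-seq. Numbers were therefore taken to pair PAPERCLIP only. In RNA-seq, replicate 3 of both treatments shared low Xist, so numbers may have a meaning there too. The block in both assays was the planned one. Alternatives were other scalings, filters, tools, thinning, blocks and left-out libraries. Some genes are not reported here.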

Additional observations from a re-analysis of the deposited data

Results flagged for a closer look

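The LPS response of Apoe differed between the assays by the test of the difference itself, at 1.95 (SE 0.22, adjusted p 0.00103 by edgeR's quasi-likelihood test). RNA-seq levels were higher in 3 of 3 LPS libraries than in any PBS library, and PAPERCLIP levels overlapped. Groups of 3 libraries are too small for a check of single outlying libraries.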

How the results depend on the processing

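The difference in LPS response of Apoe passed under every setting run, and it was 1.70 to 2.05 when each library was left out in turn. The number of genes whose response differed was 1 under RLE scaling, total counts and TMM within each assay. It was 87 with DESeq2 (63 larger in RNA-seq, 24 smaller), 4 with limma voom (all larger), 115 with no filter (62 and 53), 10 with at least 20 counts in each assay (8 and 2) and 12 with at least 5 CPM in 3 libraries of each (10 and 2). The replicate block in both assays gave 57 (39 and 18) and the block in PAPERCLIP only gave 72 (48 and 24). Thinning to the shallowest library, which left 6418 genes tested, gave 4 (all larger). Without replicate 3 of both treatments the number was 19 in PAPERCLIP (8 and 11) and 3 in RNA-seq (all larger). Leaving out each library in turn gave 1 to 37, with 1 to 11 larger and 0 to 26 smaller, and the highest came without PAPERCLIP LPS replicate 3. Without PAPERCLIP PBS replicates 1 and 2 it was 6 and 11, and without PAPERCLIP LPS replicate 2 or RNA-seq PBS replicate 3 it was 2.

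Genes called in RNA-seq, 1777 with all settings as given, were 647 after thinning, 2675 with the assay fitted alone and 1029 to 2093 with a library left out. Those in PAPERCLIP, 388, were 117 with voom, 861 with no filter, 606 with the block in PAPERCLIP only, 203 with the assay fitted alone and 279 to 551 with a library left out. The Apoe PAPERCLIP response, 0.03 with all settings as given, turned to -0.0101 with total counts, -0.0039 with at least 20 counts in each assay, -0.0174 after thinning, -0.0351 without replicate 3 of both PAPERCLIP treatments and -0.0209 with the assay fitted alone. The difference of Araf turned to -0.0758 without replicate 3 of both PAPERCLIP treatments and -0.0748 without PAPERCLIP PBS replicate 3, and was at most 0.453 with another library left out. The H2-K1 difference in LPS response, 0.03 with all settings as given, was -0.0022 with total counts, -0.0207 with no filter, -0.0835 without replicate 3 of both PAPERCLIP treatments and -0.168 to 0.171 with a library left out. The Cd52 difference in LPS response, 0.0072, was -0.0203 with total counts, -0.0420 with no filter, -0.0253 with the replicate block in both assays, -0.181 after thinning, -0.272 without replicate 3 of both PAPERCLIP treatments and -0.320 to 0.169 with a library left out. The H2-Ab1 difference in LPS response, 0.33, was -0.0448 to 0.427 with a library left out. The cause was not tested. No other gene whose response or difference was recomputed changed sign. PAPERCLIP PBS libraries were the shallowest, and genes with few counts there had wide intervals.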
